A study of Mus musculus with 24 samples.

Results

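Genes of the airway lining were followed in the lungs of mice carrying a metastasizing mammary tumour. They are 9 genes by name, Scgb1a1, Scgb3a1, Scgb3a2, Bpifa1, Reg3g and Muc5b, which secretory cells of the airways produce, and Foxj1, Tppp3 and Sec14l3, which are used as genes of ciliated cells or of the airway epithelium at large. All probes that the annotation of the array platform assigns to these symbols were taken. That gave 10 probes for 7 of the 9 genes, out of 19053 genes with a probe. Scgb3a2 and Muc5b had no probe in the annotation table used and were not analysed here.

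RNA of liver and lung from female BALB/c mice, 22 weeks old, was measured on 24 Illumina bead arrays. Each tissue had 4 groups of 3 arrays, named here by injection and diet. All mice ate either a control diet or a high-fat diet for 16 weeks before injection and stayed on it afterwards, and tissue was taken 14 days after injection. The sham groups received a sham injection. The 4T1 groups received cells of 4T1, a mouse mammary carcinoma line derived from BALB/c mice, into the mammary fat pads. The labels name no altered gene in any group, and the series title calls the mice resistant to obesity. The labels do not say that the 3 arrays of a group came from separate mice, so p-values measure only the spread between arrays, which may be technical.

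The conducting airways are lined mainly by club cells and ciliated cells, with fewer goblet, basal and neuroendocrine cells. Club cells secrete small secretoglobins, antibacterial proteins of the BPI fold family and enzymes that metabolise inhaled compounds, and they can divide to renew the lining. Ciliated cells carry motile cilia that move mucus towards the throat, and the forkhead factor Foxj1 switches on the genes of those cilia. In whole lung RNA, fewer cells of a type and less RNA per cell cannot be told apart.

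Lung arrays of sham mice had 51.0 to 52.4% of probes above background, and those of 4T1 mice 42.97 to 44.8%. Above background means a detection p under 0.05 against the negative-control probes. All 13 measured genes of a neutrophil list rose after 4T1 injection on both diets, with median log2 changes of 4.97 under the control diet and 4.597 under the high-fat diet, and the mean log2 level of the list lay between 8.24 and 8.84 on sham arrays and between 13.8 and 14.0 on 4T1 arrays. The array method gives every lung array the same distribution of signals, so each change below is relative to the other RNA of the lung. The part of the neutrophil genes in the changes of the airway genes was not tested.

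Of the airway genes, 4 have a start-site sequence in the RefSeq table used. All 4 are printed, and the other airway genes have no entry there, so the table and not the direction of change set the choice. The 4 genes were all lower after injection. Each runs from 250 bases before to 50 bases after the annotated start, on build GRCm38.p6, 5′ to 3′ on the gene's strand. Capitals mark matches to CTCAAG, a core bound by the lung epithelial factor Nkx2-1, to TTCNNNGAA, a STAT core, and to TATAAA, the TATA box. Letters were searched on both strands, so CTTGAG and TTTATA are the same cores read on the other strand.
Scgb3a1, chr11:49663345-49663644, plus strand: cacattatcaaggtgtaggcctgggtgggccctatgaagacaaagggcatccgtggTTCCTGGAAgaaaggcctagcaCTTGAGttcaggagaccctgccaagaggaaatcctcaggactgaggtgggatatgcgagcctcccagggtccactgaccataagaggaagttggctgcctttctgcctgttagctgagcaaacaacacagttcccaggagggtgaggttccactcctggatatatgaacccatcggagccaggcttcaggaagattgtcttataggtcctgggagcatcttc
Bpifa1, chr2:154142630-154142929, plus strand: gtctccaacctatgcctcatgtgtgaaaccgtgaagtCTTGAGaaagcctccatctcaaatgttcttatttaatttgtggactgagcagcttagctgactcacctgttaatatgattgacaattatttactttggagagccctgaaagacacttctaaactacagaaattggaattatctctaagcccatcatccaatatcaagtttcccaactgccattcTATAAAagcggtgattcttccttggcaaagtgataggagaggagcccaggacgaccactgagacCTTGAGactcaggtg
Reg3g, chr6:78468825-78469124, minus strand: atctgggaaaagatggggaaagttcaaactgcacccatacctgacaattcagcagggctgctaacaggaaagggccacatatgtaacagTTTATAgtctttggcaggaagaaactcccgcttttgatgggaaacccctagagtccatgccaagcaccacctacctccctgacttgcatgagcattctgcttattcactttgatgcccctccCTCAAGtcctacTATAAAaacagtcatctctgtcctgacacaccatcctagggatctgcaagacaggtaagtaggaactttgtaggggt
Sec14l3, chr11:4064603-4064902, plus strand: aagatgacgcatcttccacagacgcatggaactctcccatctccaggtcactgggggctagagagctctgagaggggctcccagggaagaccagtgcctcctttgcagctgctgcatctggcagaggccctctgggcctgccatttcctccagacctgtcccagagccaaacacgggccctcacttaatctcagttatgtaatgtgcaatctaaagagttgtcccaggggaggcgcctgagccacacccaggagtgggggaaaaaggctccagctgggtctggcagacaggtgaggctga

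The Nkx2-1 core was found at -172 in Scgb3a1, at -213 and 36 in Bpifa1 and at -39 in Reg3g, counted from the start base. Among 32851 mouse promoters of the same length, 15.9% hold it. Scgb3a1 also held a STAT core at -194, which 8.30% of promoters hold. TATAAA stood at -29 in Bpifa1 and at -27 in Reg3g, with the reverse form at -161 in Reg3g, and 13.6% of promoters hold it. None of these motifs overlapped another. TGTTTAC, a forkhead core held by 3.65% of promoters, was in none of the 4 windows, and the Sec14l3 window held none of the 4 motifs. These matches describe letters and were not tested as binding sites.

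The first question was what 4T1 injection did to the airway genes of the lung. The secreted Scgb3a1, Bpifa1 and Reg3g fell on both diets, as did Sec14l3, the ciliary regulator Foxj1 rose on both, and Scgb1a1 was at the top of the array's scale. On the control diet 5 of the 7 measured genes were called at an adjusted p under 0.05 (limma, Benjamini-Hochberg over 12746 lung genes), 1 higher and 4 lower. Of all lung genes, 52.8% were called in that comparison, 20.6% higher and 32.2% lower. On the high-fat diet 6 of 7 were called, 1 higher and 5 lower, against 53.9% of all genes, 22.6% higher and 31.3% lower. With 7 genes these shares lie near those of the whole array, as do the shares of genes whose 4T1 and sham arrays did not overlap (5 and 6 of 7, beside 60.7 and 62.1% of all genes), so the counts by themselves are not a result about airway genes. The 7 genes had median log2 changes of -0.50 (control diet) and -0.43 (high-fat diet), beside -0.09 and -0.08 over all lung genes.

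**Figure D1:**
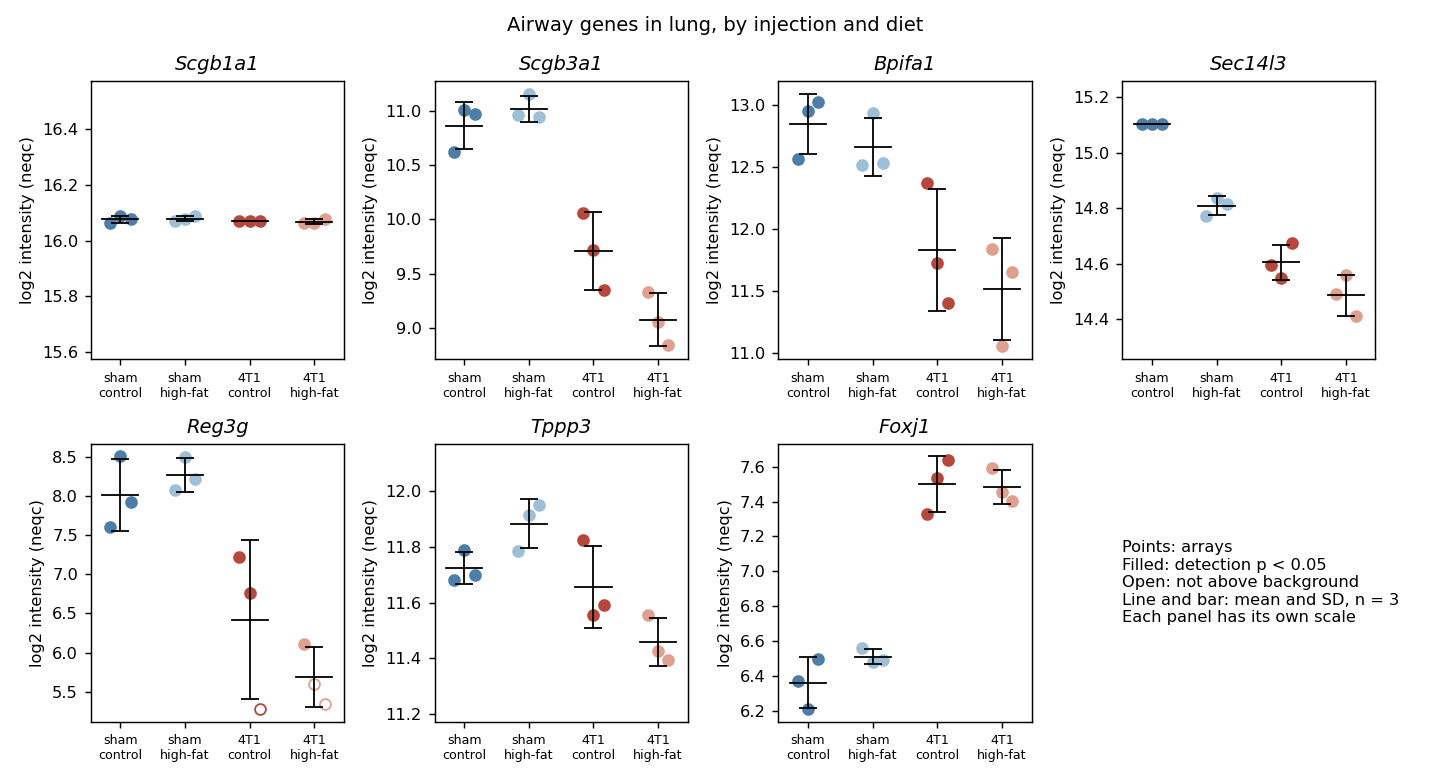
Log2 intensity (vertical axis) of each of the 7 measured airway genes on each lung array, by injection and diet (horizontal axis); points are arrays, open where the signal was not above background, with the group mean and SD (n = 3). Foxj1 is higher on every 4T1 array than on any sham array, Scgb3a1, Bpifa1, Reg3g and Sec14l3 are lower, and Scgb1a1 does not leave the top of the scale.

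Scgb3a1 encodes a small secretoglobin secreted by airway epithelium. Its main probe read log2 intensities of 10.62, 11.01 and 10.97 in sham mice on the control diet and 10.96, 11.16 and 10.94 in sham mice on the high-fat diet. After 4T1 injection it read 10.06, 9.72 and 9.35 on the control diet. It read 9.33, 9.05 and 8.84 in 4T1 mice on the high-fat diet. All 6 of the 4T1 arrays were below all 6 of the sham arrays, and the high-fat 4T1 arrays were the lowest. The change was -1.16 ± 0.18 on the log2 scale on the control diet (± SE, n = 3 per group, limma adjusted p = 3.72e-04), which is 2.23-fold lower. On the high-fat diet it was -1.95 ± 0.18 (limma adjusted p = 7.62e-06), or 3.85-fold lower.

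A second probe of Scgb3a1 had the same direction and a smaller size. It read 8.61, 9.05 and 8.82 in the sham control-diet group, and 8.33, 8.23 and 8.11 after 4T1 injection on that diet. On the high-fat diet it read 8.48, 8.46 and 8.17 in sham mice and 7.84, 7.81 and 7.73 in 4T1 mice. Its changes were -0.60 on the control diet (limma adjusted p = 0.00143) and -0.58 on the high-fat diet (limma adjusted p = 0.00179). The probes thus shared the fall but not its size, and on the high-fat diet the second probe moved by less than a log2 unit where the main probe moved by 1.95 units.

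Bpifa1 encodes a secreted protein of the BPI fold family that coats the upper airways and acts against bacteria. It read 12.57, 12.95 and 13.02 in sham mice on the control diet, and 12.52, 12.93 and 12.54 in sham mice on the high-fat diet. The 4T1 arrays read 12.37, 11.73 and 11.40 on the control diet and 11.84, 11.05 and 11.66 on the high-fat diet. No 4T1 array reached the lowest sham array, although array 1 of the 4T1 control-diet group came close to it. The fall was -1.01 ± 0.26 on the control diet (limma adjusted p = 0.00738), or 2.02-fold. It was -1.15 ± 0.26 on the high-fat diet (limma adjusted p = 0.00353), or 2.21-fold.

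Reg3g encodes a secreted C-type lectin that binds Gram-positive bacteria and is made by epithelia, airway epithelium included. It read 7.60, 8.51 and 7.92 in sham mice on the control diet and 8.07, 8.51 and 8.22 in sham mice on the high-fat diet. After 4T1 injection it read 7.22, 6.76 and 5.28 on the control diet and 6.11, 5.603 and 5.35 on the high-fat diet. The signal was above background on all 6 sham arrays, on 2 of 3 arrays of the 4T1 control-diet group and on 1 of 3 of the 4T1 high-fat group. The changes were -1.59 ± 0.43 (limma adjusted p = 0.00944) and -2.58 ± 0.43 (limma adjusted p = 4.78e-04). On the control diet, array 3 of the 4T1 group set much of the size, and without it the change was -1.02, still called. The deposited log2 values, which carry no background correction, gave -0.79 and -1.24, also called.

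Sec14l3 encodes a lipid-binding protein of the SEC14 family found in airway epithelium. Its main probe, one of 3, read 15.10 on each of the 3 sham control-diet arrays, because it was the 90th brightest probe on each and quantile normalization gives equal ranks equal values. Its bead signals on those arrays were 36467, 36770 and 35241, so the SD of 0 there is a product of the ranking. It read 14.77, 14.84 and 14.82 in sham mice on the high-fat diet, 14.60, 14.55 and 14.67 in 4T1 mice on the control diet, and 14.49, 14.56 and 14.41 in 4T1 mice on the high-fat diet. All 6 of the 4T1 arrays were below all 6 of the sham arrays. The fall after injection was -0.50 ± 0.06 on the control diet (limma adjusted p = 3.69e-05) and -0.32 ± 0.06 on the high-fat diet (limma adjusted p = 6.91e-04), which is 1.41-fold and 1.25-fold.

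The other 2 probes of Sec14l3 fell by more. One read a mean of 12.78 ± 0.05 in sham and 11.98 ± 0.26 in 4T1 mice on the control diet (SD, n = 3), and 12.51 ± 0.13 and 11.89 ± 0.14 on the high-fat diet. The other read 12.69 ± 0.13 and 12.03 ± 0.29 on the control diet and 12.48 ± 0.08 and 11.76 ± 0.15 on the high-fat diet. Their changes were -0.81 and -0.67 on the control diet and -0.63 and -0.72 on the high-fat diet. All 3 probes of Sec14l3 were therefore lower after injection on both diets.

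**Figure D2:**
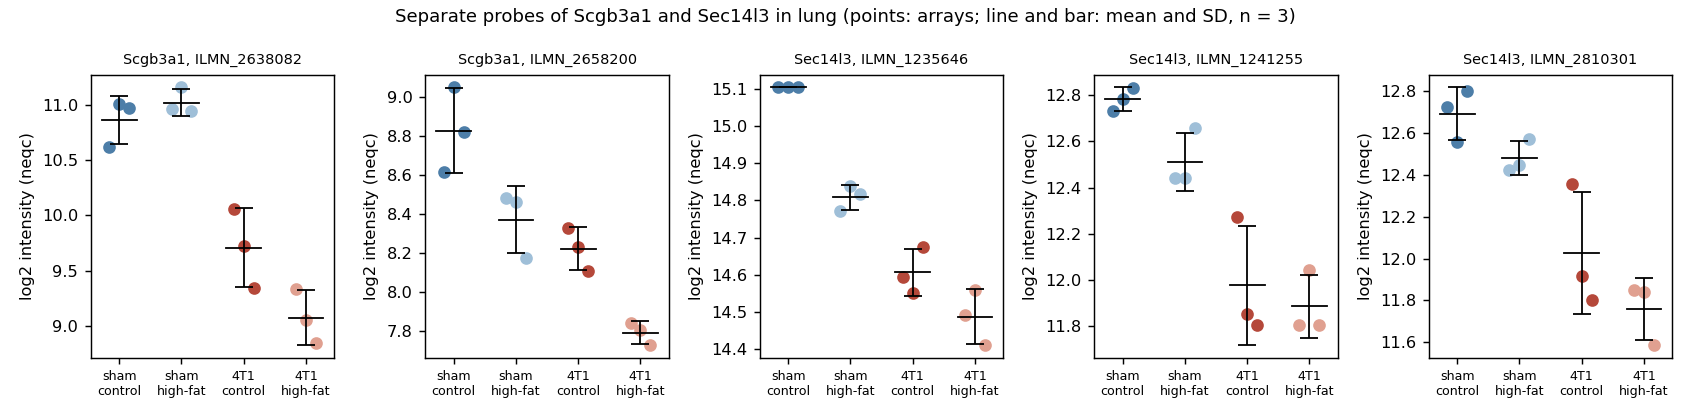
Log2 intensity (vertical axis) of the 2 probes of Scgb3a1 and the 3 probes of Sec14l3 on each lung array, by injection and diet (horizontal axis); points are arrays, with the mean and SD (n = 3). Every probe has lower means in the 4T1 groups than in the sham group of the same diet; the high-fat sham group is higher than the control sham group for the main Scgb3a1 probe and lower for the second.

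Scgb1a1 encodes the club cell secretory protein, the most used marker of club cells. It read 16.06, 16.09 and 16.08 in sham mice on the control diet and 16.07, 16.08 and 16.09 in sham mice on the high-fat diet. It read 16.07 on all 3 arrays of 4T1 mice on the control diet, and 16.06, 16.06 and 16.08 on the high-fat diet. Its bead signal was between 67910 and 69867 on lung arrays, at ranks 1 to 4 from the brightest probe, and between 97.1 and 100% of the highest signal on the array. The sham arrays read 69267 to 69867 and the 4T1 arrays 67910 to 69598 before normalization. The changes of -0.01 ± 0.04 on both diets (limma adjusted p = 0.902 and 0.864) were therefore read at the top of the scale. A rise, or a fall too small to leave the top, could not be seen there. With each array scaled to its median in place of quantile normalization, Scgb1a1 read -0.25 and -0.24, which is smaller than the -0.50 and -0.48 of the median gene under that scaling.

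Foxj1 encodes the forkhead factor that switches on motile cilia genes. It read 6.37, 6.21 and 6.50 in sham mice on the control diet and 6.56, 6.48 and 6.49 in sham mice on the high-fat diet. After 4T1 injection it read 7.33, 7.53 and 7.64 on the control diet and 7.59, 7.46 and 7.40 on the high-fat diet. Every 4T1 array was above every sham array, and the 2 diets overlapped within each injection. The rise was 1.14 ± 0.09 on the control diet (limma adjusted p = 3.38e-06), or 2.20-fold, and 0.97 ± 0.09 on the high-fat diet (limma adjusted p = 1.11e-05), or 1.96-fold. It was the only one of the 7 genes that rose. Its size depended on the scale: it was 0.53 and 0.46 in the deposited log2 values and 0.72 and 0.53 with median scaling, called each time. Foxj1 was dim in sham lung, with bead signals of 219.2 to 239.6 where the medians of all probes were 174.7 to 184.5. Every sham array was above background, but not far above it, so the size of the rise is uncertain.

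Tppp3 encodes a tubulin-binding protein that is abundant in ciliated cells. It read 11.68, 11.79 and 11.70 in sham mice and 11.83, 11.55 and 11.59 in 4T1 mice on the control diet. On the high-fat diet it read 11.79, 11.92 and 11.95 in sham mice and 11.56, 11.43 and 11.39 in 4T1 mice. The control-diet groups overlapped, while on the high-fat diet all 4T1 arrays were below all sham arrays. The change was -0.07 ± 0.08 on the control diet (limma adjusted p = 0.522), and -0.43 ± 0.08 on the high-fat diet (limma adjusted p = 0.00134). The difference between these changes, -0.36 ± 0.12, did not pass its own test (limma adjusted p = 0.266). With median scaling Tppp3 was also called lower on the control diet, at -0.51.

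The scale of the arrays bore on these values as a whole. With median scaling the median of all lung genes moved to -0.50 (control diet) and -0.48 (high-fat diet). Among the called genes, the share that were higher went from 39.04 to 12.0% and from 41.9 to 12.8%. The airway genes were then called 1 higher and 6 lower on both diets, where the 6 include Scgb1a1, whose bead signal stayed at the top of the scale. Relative to the median of all genes under that scaling, Foxj1 was at 1.22 and 1.01, Scgb3a1 at -1.13 and -1.92, Bpifa1 at -0.92 and -1.05, and Reg3g at -1.46 and -2.39. Sec14l3 was at -0.30 and -0.16 and Tppp3 at -0.01 and -0.35. For the main probes, the rise of Foxj1 and the falls of Scgb3a1, Bpifa1 and Reg3g thus stood on either scale. The falls of Sec14l3 and Tppp3 lay closer to the shift of all genes. The other probes of Scgb3a1 and Sec14l3 were not run with median scaling. On the main scale the other Sec14l3 probes fell by more than its main probe, and the second Scgb3a1 probe by less.

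**Figure D3:**
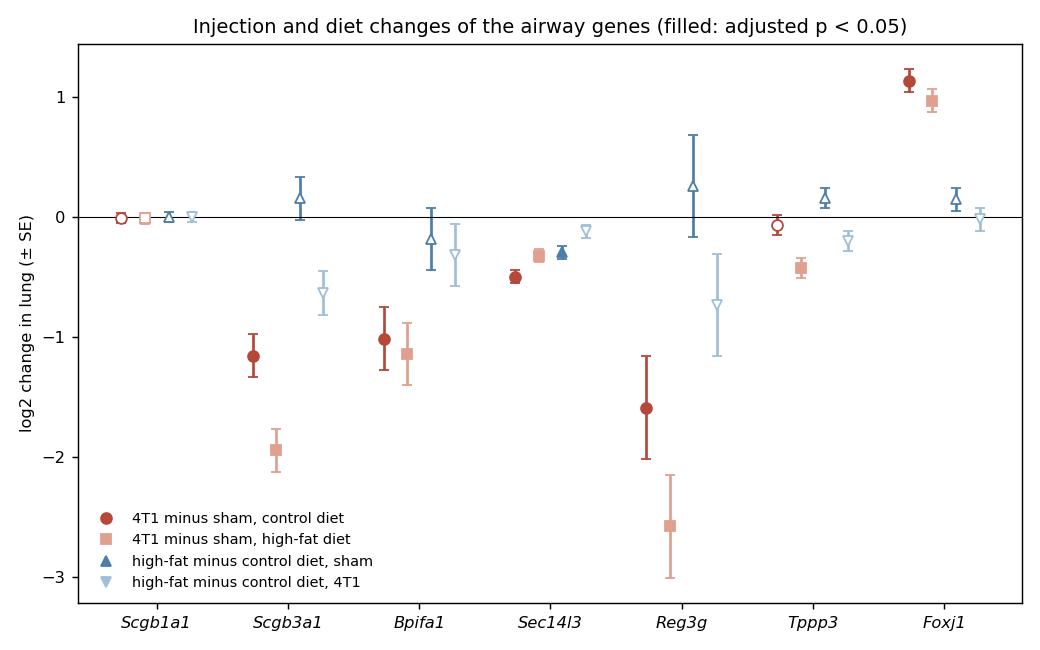
Log2 change in lung (vertical axis, ± SE) of each measured airway gene (horizontal axis) for injection on each diet and for diet within each injection; filled symbols have an adjusted p under 0.05. The injection changes run from -2.58 for Reg3g to 1.14 for Foxj1, and of the diet changes only that of Sec14l3 in sham mice is filled.

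The second question was what the high-fat diet did to these genes in lung. In sham mice 1 of the 7 genes, Sec14l3, was called lower at -0.29 ± 0.06 (limma adjusted p = 0.0312), beside 1.67% of all genes called and 0.706% called lower. Its main probe had the SD of 0 described above in the control-diet group, and its other probes gave -0.27 and -0.21 without passing (limma adjusted p = 0.339 and 0.529). The call was lost with median scaling (limma adjusted p = 0.104) and whenever any of the 6 sham arrays was left out. For the main probes of the other 6 genes the diet change in sham mice lay between -0.18 for Bpifa1 and 0.26 for Reg3g, with adjusted p from limma of 0.386 or more. The Scgb3a1 probes differed in sign, at 0.16 ± 0.18 for the main probe and -0.45 ± 0.12 for the second (limma adjusted p = 0.103), where all high-fat sham arrays were below all control sham arrays.

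In 4T1 mice none of the 7 genes was called for diet, and neither was any of the 12746 lung genes (0% by limma, with 1436 genes at an unadjusted p under 0.05). Scgb3a1 read -0.63 ± 0.18 (limma adjusted p = 0.272), with high-fat arrays all below control-diet arrays. Of all lung genes, 6.06% were lower without overlap in that comparison. Reg3g read -0.73 ± 0.43, Bpifa1 -0.32 ± 0.26, Tppp3 -0.20 ± 0.08, Sec14l3 -0.12 ± 0.06, Foxj1 -0.02 ± 0.09 and Scgb1a1 0.00 ± 0.04. The test of whether injection acted differently on the 2 diets called none of the 7 genes, beside 0.0863% of all genes (11 genes, by limma). That difference was -0.79 ± 0.26 for Scgb3a1 and -0.99 ± 0.60 for Reg3g, with limma adjusted p-values of 0.266 and 0.536. The second Scgb3a1 probe gave 0.03 for it, so the probes disagreed there.

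Arrays within a group were not equally far apart for the different genes. Foxj1 spanned between 1.06-fold and 1.24-fold within a group, and Tppp3 between 1.08-fold and 1.21-fold. Bpifa1 spanned up to 1.95-fold and Reg3g up to 3.86-fold, both in the 4T1 control-diet group. In that group array 1 was the highest for 5 of the 7 genes, where Scgb1a1 is tied. Array 3 was the lowest for Scgb3a1, Bpifa1 and Reg3g while it was the highest for Foxj1 and for the main Sec14l3 probe. Genes of heart muscle, which can enter a lung sample with the large vessels, varied across the same arrays. Their mean log2 level over 11 genes was 11.13, 11.78 and 10.54 on arrays 1 to 3 of that group, between 10.91 and 11.73 on sham arrays and between 10.37 and 10.74 on the 4T1 high-fat arrays. The part of heart tissue in the airway gene values was not tested.

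Most other measured genes of airway secretory cells fell with the secreted airway genes. Of a list of 25 club and secretory cell genes, 20 were measured, and none was called higher after injection on either diet. Under the control diet 12 of the 20 fell (60.0%, median log2 change -0.27), where 32.2% of all genes were called lower. Under the high-fat diet 14 of the 20 fell (median -0.39), where 31.3% of all genes were called lower. Pigr, the receptor that carries IgA into the airway, fell, with log2 changes of -0.50 (control diet) and -1.33 (high-fat diet). In the same order, Bpifb1, a secreted relative of Bpifa1, fell at -0.55 and -0.83, and Cyp4b1, a monooxygenase of club cells, at -0.76 and -0.52. Pon1, a lipid-protecting esterase, fell at -0.53 and -0.59, Iyd, which recovers iodide, at -0.31 and -0.61, and Cldn10, a tight junction protein of club cells, at -0.27 and -0.59. Pigr, Cyp4b1, Pon1 and Iyd were also above background on 12 of 12 liver arrays. On the same lung arrays the hepatocyte list had median changes of -1.40 and -1.46, and its part in the values of these genes was not tested. Cyp2f2 and Cbr2, both markers of club cells, lay near the top of the scale, like Scgb1a1, and were not called, at -0.03 and -0.07 on the control diet and -0.10 and -0.16 on the high-fat diet.

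Relatives of the airway genes were measured less often. Of 23 family relatives with a probe, 12 were tested. Of these, 7 were called lower and 1 higher on the control diet, and 8 lower and 1 higher on the high-fat diet. The lower ones were 58.3 and 66.7% of those tested, beside 32.2 and 31.3% of all genes. Sec14l2, a relative of Sec14l3 that binds tocopherol, fell with log2 changes of -1.14 and -1.62. The hepatocyte list fell by medians of -1.40 and -1.46 on the same arrays, and its part in the Sec14l2 values was not tested. Tppp, a relative of Tppp3, fell at -0.58 and -0.63. The membrane mucin Muc4 was above background on no 4T1 array and was at least 1.08-fold and 1.12-fold lower. Reg2, Reg3a, Reg3b, Reg3d and Reg4 were above background on 0 of 12 lung arrays, so among the Reg genes on the array only Reg3g, and Reg1 on 3 arrays, gave a signal.

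Genes of motile cilia were called in both directions. Of 53 cilia genes with a probe, 47 were measured. On the control diet 3 were higher and 11 lower (23.4% lower, beside 32.2% of all genes; median -0.11). On the high-fat diet 4 were higher and 20 lower (42.6% lower, beside 31.3% of all genes; median -0.17). Sntn, a protein of the ciliary tip, changed by -1.40 ± 0.16 on the control diet (limma adjusted p = 3.77e-05). It was at least 1.71-fold lower on the high-fat diet, where no 4T1 array was above background. Enkur and Spag16, both proteins of the axoneme, fell at -0.36 and -0.49 with the control diet and at -0.85 and -0.69 with the high-fat diet. Iqcg fell at -0.48 in control-diet mice and was at least 1.31-fold lower in high-fat mice. In the other direction, the dynein heavy chain Dnah11 rose by 0.59 and 0.87, and Hydin, of the central pair, rose by 0.92 and 0.72. With median scaling 41 and 39 of the 47 were called lower and 1 and 0 higher, where the list medians of -0.60 and -0.66 lay beside -0.50 and -0.48 for all genes.

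Among regulators of ciliated cell formation, more rose than fell on both diets. Of 14 with a probe, 9 were measured. On the control diet 5 were higher and 1 lower (median 0.31), and on the high-fat diet 6 were higher and 1 lower (median 0.34). The higher ones were 55.6 and 66.7% of those tested, beside 20.6 and 22.6% of all genes. Ccno, a cyclin-like protein needed for centriole amplification, rose by 1.29 and 1.22. The transcription factor Rfx2 rose by 0.45 and 0.29, E2f4 by 0.37 and 0.34, and the kinase-like Ulk4 by 0.65 and 0.59. With median scaling 2 and 3 of the 9 were called higher, and the list medians were -0.08 and -0.12. E2f4 and Myb are also active in dividing blood cells, and the neutrophil list rose on the same arrays. The part of blood cells in these values was not tested.

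Other epithelial lists are set beside the 32.2% (control diet) and 31.3% (high-fat diet) of all genes called lower. All 10 genes of alveolar type 1 cells fell under either diet, as did 9 of 12 alveolar type 2 genes. Nkx2-1, the factor whose core was searched above, fell with log2 changes of -1.06 and -1.27. Among 13 general epithelial genes, the control diet gave 4 lower and 1 higher, and the high-fat diet 8 lower and none higher, so 30.8 and 61.5% were lower. Among 8 airway basal genes, Snai2 fell under both diets and Dst under the control diet, and Krt5 and Trp63, the defining markers, were not called. Of 7 goblet cell genes, 1 and 2 fell (14.3 and 28.6%) and none rose. Of tuft, neuroendocrine and ionocyte genes 4 were measured, with 1 lower under the control diet, and 1 higher and 2 lower under the high-fat diet.

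**Figure D4:**
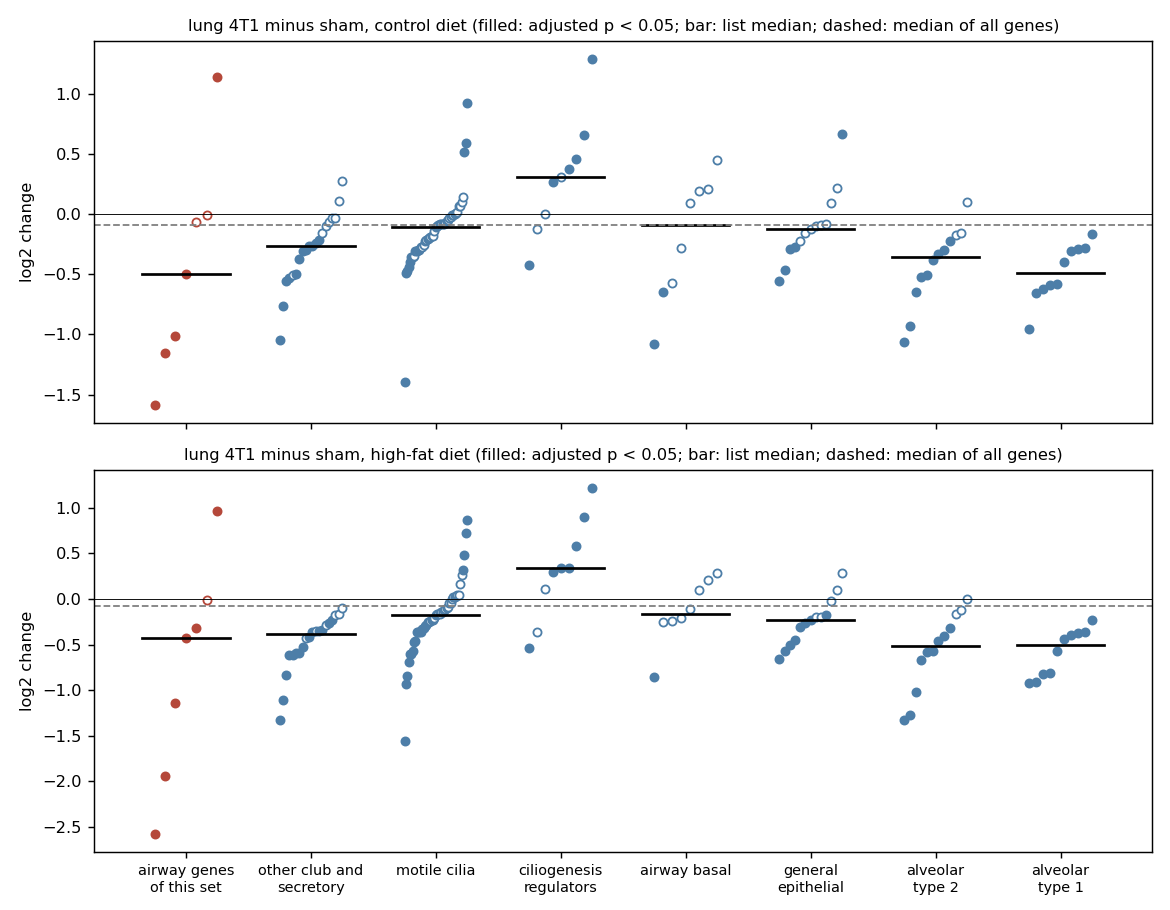
Log2 change after 4T1 injection in lung (vertical axis) of the measured airway genes and of each gene in 7 further lists (horizontal axis), on the control diet above and the high-fat diet below; points are genes, filled at an adjusted p under 0.05, bars are list medians and the dashed line is the median of all lung genes. The medians of the other club and secretory list are -0.27 and -0.39 and those of the ciliogenesis regulators 0.31 and 0.34.

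Lists of other tissues and cells gave these values beside the airway genes. Of all lung genes, 20.6% were called higher and 32.2% lower on the control diet, and 22.6% and 31.3% on the high-fat diet. The lists are short, and some counts lie near those shares, such as the 33.3% of smooth muscle genes lower on the control diet. Of 6 airway cartilage genes, 3 rose and 1 fell on both diets. Of 6 smooth muscle genes, 2 were lower with the control diet, and 3 lower and 1 higher with the high-fat diet. Of 11 heart muscle genes, 5 and 9 fell. Of 8 hepatocyte genes present in lung RNA, 7 and 6 fell, and their mean log2 level ranged from 10.31 to 11.45 on sham arrays and from 8.56 to 10.57 on 4T1 arrays. Of 6 adipocyte genes none and 1 fell, and of 4 thymus genes 3 and 2 rose and 1 fell on each diet. Of 9 epithelial genes fixed as markers of 4T1 cells, 1 was higher with the control diet and 1 lower with the high-fat diet. Of 12 genes that IL-17, IL-22 or IL-6 induce in epithelium, a class to which Reg3g belongs, 7 rose and 2 fell on both diets. Lcn2, an iron-sequestering antibacterial protein of epithelium and of neutrophils, rose by 2.73 and 3.16, and Saa3 rose by 2.96 and 3.11, where Reg3g fell.

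The genes most alike to each airway gene over the 12 lung arrays were listed by Pearson's r among 10158 genes above background on all of them, as a description, since the arrays share the same groups. Foxj1 was closest to Mtmr3, Akna and Dbnl, with r of 0.992, 0.990 and 0.989. Scgb3a1 was closest to Bcl7a, Fam131a and Chchd10 (0.983, 0.979 and 0.978), and Sec14l3 to Maco1, Cyp2b10 and Gsta3 (0.984, 0.984 and 0.979). Bpifa1 was closest to Ackr4, at 0.956, and Tppp3 to Aph1b, at 0.946. Reg3g was closest to Ptprz1, at 0.966, and next to Ryr2, a calcium channel of heart muscle, at 0.964. For Scgb1a1 the highest r was 0.837, with Zfp655, over values that differ by hundredths of a log2 unit.

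Liver served as the reference tissue. In sham mice on the control diet all 7 measured genes were higher in lung than in liver (limma on all 24 arrays), as 41.5% of all genes were. Bpifa1 was at least 70.6-fold higher, Tppp3 at least 29.9-fold, Scgb3a1 at least 15.7-fold and Reg3g at least 1.995-fold, since none was above background on a liver array of that group. A bound sets the lung mean against the higher of the gene's own liver value and the lowest value above background on each array. The main Sec14l3 probe, above background on 0 of 12 liver arrays, was at least 380.6-fold higher, while another Sec14l3 probe was above background on 1 liver array of that group. Foxj1 was not above background on any liver array. No fold is given for it, since its bound came to 0.695: its dim lung mean lay below the liver value that the bound uses. These folds compare only the sham control-diet groups of lung and liver.

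Scgb1a1 was above background on 12 of 12 liver arrays, although far below its lung signal. Its mean log2 intensity in liver (± SD, n = 3) was 7.73 ± 0.50 in control-diet sham mice and 7.61 ± 0.37 in high-fat sham mice. In 4T1 mice it was 8.29 ± 0.42 with the control diet and 7.14 ± 1.16 with the high-fat diet, the latter with array 1 at 8.44 and arrays 2 and 3 at 6.79 and 6.20. The liver groups overlapped, and no injection or diet change of Scgb1a1 was called in liver (limma adjusted p = 0.382 for injection with control diet and 0.463 with high-fat diet). Of all liver genes, injection called 43.3 and 48.8%, and diet called 11.2% in sham and 0.303% in 4T1 mice. Lung and liver differed in the effect of injection, averaged across both diets, for 55.2% of all genes. That difference is not given for Scgb1a1, which was at the top of the scale in lung, nor for Sec14l3, whose main probe was not above background in liver. Liver bead signals ran from 241.1 to 679.9, against at least 67910 in lung. Other lung genes did not share the signal alike: Sftpc, Sftpb and Sftpa1 were above background on 0 of 12 liver arrays, Cbr2 on 2 and Sftpd on 12. The source of the Scgb1a1 signal in liver was not tested.

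**Figure D5:**
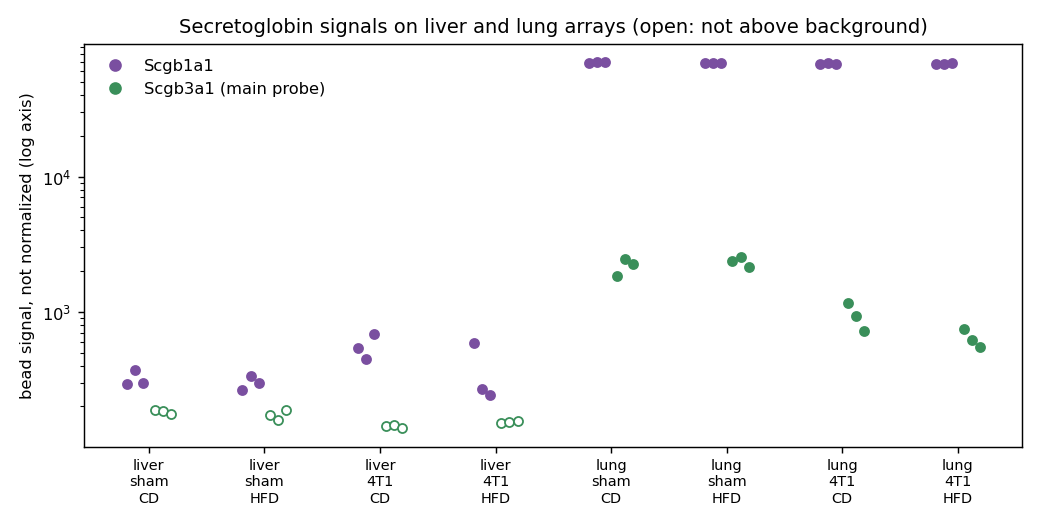
Bead signal without normalization (vertical axis, log scale) of Scgb1a1 and of the main Scgb3a1 probe on each of the 24 arrays, by tissue, injection and diet (horizontal axis); open points were not above background. Scgb1a1 lies between 241.1 and 679.9 in liver and at 67910 or above in lung, and Scgb3a1 is open on every liver array.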

How the data were processed

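Lung and liver RNA was measured on 24 arrays, with groups taken from the sample titles and columns tied to samples by the sample names (0 columns unmapped). Per the submitters' processing notes, the deposited probe intensity values come from GenomeStudio 2009.2, and they are not normalized. A detection p-value, deposited beside every intensity per the file headers, ranks the signal among negative controls. The deposited table of log2 values was, by comparison with the intensities, quantile-normalized within tissue without background correction. Of its 1086744 probe-array pairs 99.9997% lay within 0.01 of that and 3 did not. It serves as an alternative. The scanner settings are not given here.

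Intensities were background-corrected per tissue by the normal-exponential model of limma 3.58.1 (R 4.3.3) with its negative controls estimated through the detection p-values, given an offset of 16, quantile-normalized and log2-transformed. Probes with a detection p under 0.05 on at least 3 of the tissue's 12 arrays were kept. Where a gene had several probes, the brightest on average stood for it. Of 45281 probes, 34885 have 1 symbol, 18 several and 10378 none, and only the first kind was used. Groups were compared with lmFit and eBayes over the 12 arrays of a tissue, or all 24 normalized together for lung against liver, with Benjamini-Hochberg adjustment over 12746 lung, 10904 liver or 13386 joint genes, and called at an adjusted p under 0.05. The statistics were tested on simulated data in which few genes changed. That test does not cover the injection comparisons, where many genes did. The number of arrays limits the precision.

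The airway genes and all lists were chosen with earlier results of these data known. Named genes are the airway genes, up to 4 genes per list (6 for the club and cilia lists) with the largest mean change among those called on both diets without overlap of groups, and the 3 genes most alike to each airway gene. Genes named outside this rule were chosen after their values were seen. Alternatives were the deposited log2 values, median scaling, other filters, other probes, other fits and leaving out each array.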

Additional observations from a re-analysis of the deposited data

Results flagged for a closer look

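The effect of injection on Tppp3, taken as the mean of both diets, was not the same in lung and liver, with a difference of -0.57 ± 0.21 on the log2 scale (lung minus liver, limma adjusted p = 0.0300), among 55.2% of all genes for which that difference was called. The lung arrays after injection were lower on the high-fat diet in 3 of 3 arrays and overlapped with sham on the control diet. In liver Tppp3 was above background on 2 of 12 arrays, both from 4T1 mice on the control diet, so the liver side of this difference was read close to background.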

How the results depend on the processing

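In lung, every injection call of Scgb3a1, Bpifa1, Reg3g, Sec14l3 and Foxj1 on both diets, and of Tppp3 on the high-fat diet, kept its direction and stayed past the threshold under the deposited log2 values, median scaling, the other filters, probes and fits, the replicate block and with each array left out. Median scaling added calls of Scgb1a1 (-0.25 and -0.24), which lies at the top of the scale, and of Tppp3 on the control diet (-0.51). The count of 1 gene lower for diet in sham mice, Sec14l3, went to 0 with median scaling, with the replicate block (adjusted p = 0.0701 by limma), with no filter on dim probes (0.0540) and with only the 6 sham arrays fitted (0.0544), and ranged from 0 to 1 over the arrays left out. The cause was not tested. Some diet and interaction values that were not called changed sign. For Scgb1a1 the diet value in 4T1 lung was 0.031 with median scaling and 0.0012 with both tissues normalized together, and the interaction was 0.010 with median scaling. For the second Scgb3a1 probe the diet value in sham lung was -0.455, against 0.16 for the main probe, and the interaction 0.026, against -0.79, and for another Sec14l3 probe the interaction was -0.054. The cause was not tested. Over the arrays left out, Scgb1a1 ran from -0.0044 to 0.0075 for diet in sham lung, from -0.0053 to 0.0014 in 4T1 lung and from -0.0083 to 0.0036 for the interaction, Bpifa1 from -0.348 to 0.135 for the interaction, and Foxj1 from -0.104 to 0.052 for diet in 4T1 lung. In liver with median scaling, Scgb1a1 changed after injection by 1.46 on the control diet (adjusted p = 0.00845 by limma) and by 0.548 on the high-fat diet. The median of all liver genes moved by 0.66 and 0.73 under that scaling. The control-diet value thus lay above that shift and the high-fat value below it. On the main scale with arrays left out, the high-fat injection change of Scgb1a1 in liver ran from -1.11 to 0.010. It was called only without array 1 of the 4T1 high-fat group (adjusted p = 0.0261 by limma). The diet value in sham liver ran from -0.392 to 0.094. Over all lung genes, the diet calls in sham mice numbered 213, against 369 in the deposited log2 values and 115 with the replicate block, and the interaction calls 11, against 36 and 4. Arrays with the same replicate number were not shown to be paired: 2 of 18 lung pairs and 0 of 18 liver pairs deviated together with a correlation over 0.1. A slide block was not run, since the sources used here name no slide. Scgb1a1 in lung, at the top of the scale, Reg3g in 4T1 lung, near background, and Foxj1 in sham lung, not far above background, limit what their values can show.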
